A study of Mus musculus with 6 samples.

Results

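Small nucleolar RNAs (snoRNAs) and small Cajal body RNAs (scaRNAs) were compared between the ileum of wild type mice and the ileum of TLR4ΔIEC mice, in which Toll-like receptor 4 (Tlr4), the receptor for bacterial lipopolysaccharide, is deleted in intestinal epithelial cells. The RNAs were all symbols in the deposited table that start with Snord, Snora or Scarna followed by a number, 117 of 23341 symbols listed. The name was used to split them into 72 C/D box snoRNAs (Snord), 36 H/ACA box snoRNAs (Snora) and 9 scaRNAs (Scarna). Both groups held 3 C57BL/6 mice aged 24 weeks. The sources used here do not give the promoter that drives the deletion or the origin of the wild type mice. Each genotype was deposited as 1 pooled column of average coverage, the mean number of reads over each base of an entry. Values of single mice were not analysed here, so the spread between animals is unknown and no difference below was tested. Libraries were pooled for sequencing by genotype, so the genotype cannot be told apart from the sequencing pool here. Tissue was whole ileum, in which fewer cells of a type and less RNA per cell cannot be told apart.

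snoRNAs are short, stable noncoding RNAs of the nucleolus that base-pair with a target RNA and bring an enzyme to it. C/D box snoRNAs carry fibrillarin (Fbl), which methylates the ribose of the paired ribosomal RNA base, and H/ACA box snoRNAs carry dyskerin (Dkc1), which turns a uridine into pseudouridine. scaRNAs do the same for spliceosomal RNAs in Cajal bodies. In mammals most of these RNAs are cut from introns of genes for ribosomal proteins, translation factors or noncoding host transcripts, so that 1 transcript can yield both an mRNA and a snoRNA. In the intestine, where the epithelium renews itself quickly, ribosome production is high, and snoRNAs are part of its machinery.

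The sequences below, from GENCODE vM21 transcripts on GRCm38, the assembly behind mm10, show what was measured. The first 3 are the most covered member of each class. Snord22 lies at chr19:8725866-8725991 on the plus strand, Snora64 at chr17:24720772-24720905 on the plus strand, and the printed end of Scarna2 at chr3:108554338-108554462 on the minus strand. Capitals mark the last CTGA (the letters of box D) in Snord22. In Snora64 they mark the ACA that stands before the last 3 bases and the ANANNA (the letters of box H) nearest the middle. In Scarna2 they mark positions 350 to 410, the 61 bases that the RefSeq model covers of a transcript of 414 bases, so its coverage describes that stretch alone; the printed run starts at position 290.
Snord22: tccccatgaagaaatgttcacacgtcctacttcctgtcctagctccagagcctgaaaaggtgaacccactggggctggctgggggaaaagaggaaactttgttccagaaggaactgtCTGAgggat
Snora64: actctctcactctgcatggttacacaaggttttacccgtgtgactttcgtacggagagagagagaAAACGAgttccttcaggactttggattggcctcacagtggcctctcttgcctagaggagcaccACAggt
Scarna2: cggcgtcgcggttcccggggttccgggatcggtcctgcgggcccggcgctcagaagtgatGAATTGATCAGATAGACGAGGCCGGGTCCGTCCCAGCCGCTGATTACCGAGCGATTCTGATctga

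The next 2 carried the highest C/D ratio and the lowest H/ACA ratio of the TLR4ΔIEC to the wild type column. Snord1c lies at chr11:116672506-116672581 on the plus strand and Snora5c at chr11:6620319-6620454 on the minus strand, with the same letters in capitals as above.
Snord1c: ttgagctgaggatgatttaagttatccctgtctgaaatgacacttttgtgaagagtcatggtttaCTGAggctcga
Snora5c: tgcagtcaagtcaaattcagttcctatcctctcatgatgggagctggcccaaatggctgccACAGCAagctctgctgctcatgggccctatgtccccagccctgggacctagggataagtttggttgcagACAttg
Snord1b (chr11:116674148-116674222, plus strand) and Snord1a (chr11:116674598-116674671, plus strand) lie in the same host transcript as Snord1c and show how close the copies are. The last CTGA is in capitals.
Snord1b: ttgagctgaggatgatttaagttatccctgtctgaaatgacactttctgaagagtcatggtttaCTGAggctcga
Snord1a: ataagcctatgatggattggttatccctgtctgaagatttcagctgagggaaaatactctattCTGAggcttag
Snord34 (chr7:45126601-45126670, minus strand) and Snord35a (chr7:45126346-45126435, minus strand) come from introns of 1 gene, Rpl13a, and their ratios lay on opposite sides of 0. The last CTGA is in capitals.
Snord34: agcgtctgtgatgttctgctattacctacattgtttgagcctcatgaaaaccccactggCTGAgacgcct
Snord35a: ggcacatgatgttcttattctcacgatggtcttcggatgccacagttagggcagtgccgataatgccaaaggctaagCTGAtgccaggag

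The letters of boxes C, D and ACA divided C/D from H/ACA sequences largely as the names do. TGATGA, the core of box C, followed by CTGA was found on the transcribed strand of 44 of 67 C/D sequences (65.7%) and of 0 of 35 H/ACA sequences. It was found in 0.295% of 32851 promoter windows of 79 bases. ACA before the last 3 bases was found in 29 of 35 H/ACA sequences (82.9%) and in 0 of 67 C/D sequences, against 1.66% of promoter windows of 132 bases, and all 29 also held ANANNA. Among the 9 scaRNAs, 5 held TGATGA followed by CTGA and 2 had ACA before the last 3 bases. TGAG, the letters of the Cajal body box, did not divide the classes: it was in 8 of 9 scaRNAs (88.9%), 54 of 67 C/D sequences (80.6%) and 15 of 35 H/ACA sequences (42.9%). Promoter windows of 140, 79 and 132 bases held it in 48.9%, 31.7% and 47.0%. A C/D sequence without TGATGA, such as those printed above, can carry a box C of other letters.

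Both columns listed 113 of the 117 RNAs (69 C/D, 35 H/ACA and 9 scaRNAs). Snora20, Snord14c, Snord14d and Snord90 were listed in the TLR4ΔIEC column only, at a coverage of 0.246, 0.955, 0.913 and 0.691, and were not compared. Both columns were brought to 1 scale by the median of ratios, with a mean total of 1000000 units, and ratios are log2 of TLR4ΔIEC over wild type after adding 1 unit, which understates the ratios of weakly covered RNAs. A mean of at least 5 units (3.41 reads per base in wild type, 3.58 in TLR4ΔIEC) was reached by 102 RNAs: 62 C/D, 31 H/ACA and 9 scaRNAs. Snora36b passed through its wild type value alone, and the other 101 were past that level in both columns. The 11 that did not pass were Snord14a, Snord93, Snora2b, Snora69, Snora35, Snord98, Snord116, Snord116l1, Snord116l2, Snord1a and Snora19. Where a pair of values is given below, wild type comes first and TLR4ΔIEC second. A coverage of 100 needs at least 100 overlapping reads, and 63 of the 113 reached it in both columns, while 19 were under 10 in at least 1.

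Of the 113 RNAs, 107 lay inside a gene of the same strand. Of these, 99 lay in an intron, with no exon of that gene's basic transcripts over them. The other 8 lay in an intron of some transcripts and an exon of others. The RefSeq model was shorter than the GENCODE transcript for 92 RNAs and under 60% of it for 7, among them Scarna2, Scarna10, Snora61 and Snord98. An exon of another listed gene, in some cases the host or a microRNA entry, overlapped 16 of them, and the sources used here do not say whether counting used strand, so the reads of such pairs cannot be told apart.

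These RNAs were among the most covered entries of the ileum. They held 7.78% of the summed average coverage of genes listed in both columns in wild type and 7.61% in TLR4ΔIEC, and 14 of the 100 highest genes in each column. Snord22, the U22 RNA needed for maturation of the small subunit's rRNA and cut from Snhg1, was the most covered, at 7880 reads per base in wild type and 7899 in TLR4ΔIEC, ranks 13 and 14 of all genes. In scaled units it stood at 11551 and 11041, a log2 ratio of -0.07. Snora64, an H/ACA guide in an intron of Rps2, came next in both columns with a coverage of 5634 and 4399. The third in wild type was Snora52, in an intron of Rplp2, at 3401 and 2660, and in TLR4ΔIEC it was Snord32a, at 1934 and 3788. The order of the RNAs was much alike in both columns: across the 102 RNAs, log2 units had a Pearson r of 0.94 and a Spearman rho of 0.95, a description over RNAs that share libraries and preparation.

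**Figure D1:**
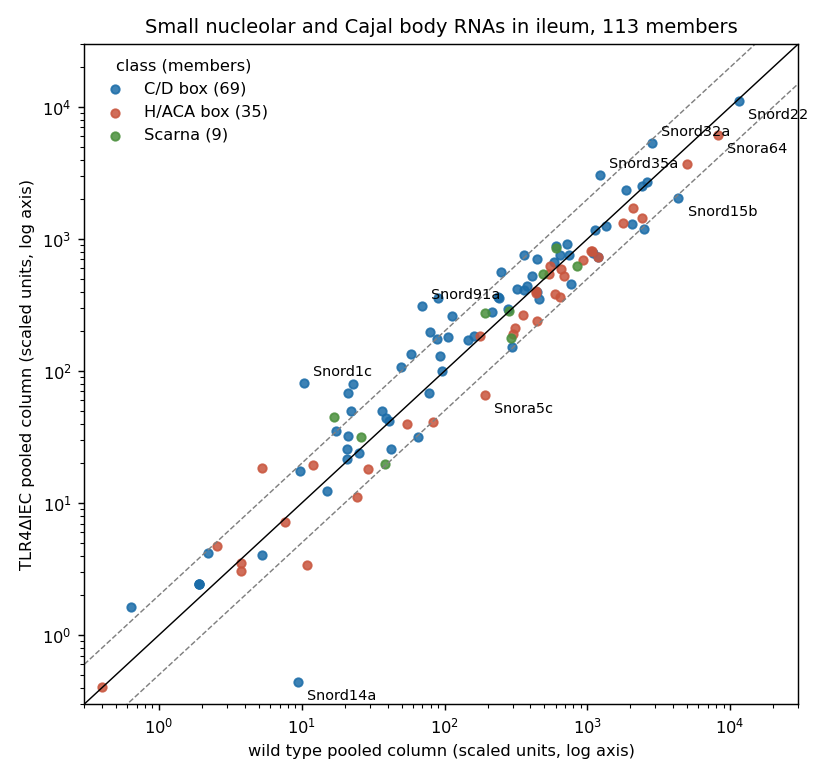
Scaled units of the 113 RNAs listed in both columns, wild type on the x axis and TLR4ΔIEC on the y axis, both log axes. Each point is 1 RNA coloured by class, the solid line marks equality and the dashed lines a 2-fold difference of units. Snord22 and Snora64 lie at the upper right, Snord1c above the upper dashed line and Snora5c below the lower one, while Snord14a, at 9.40 and 0.445 units, is under the level needed for a comparison.

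C/D box snoRNAs lay mostly above and H/ACA box snoRNAs mostly below the ratio of the typical gene. Of 62 C/D RNAs, 46 had a ratio above 0 and 16 below, with a median log2 ratio of 0.27 (middle 50% from -0.04 to 0.87, range -1.10 to 2.86). Of 31 H/ACA RNAs, 5 were above 0 and 26 below, with a median of -0.43 (middle 50% from -0.68 to -0.15, range -1.52 to 1.62). Of 9 scaRNAs, 6 were above 0 and 3 below, with a median of 0.14. The median of all 8891 genes compared was 0.03, and that of 146 other short RNAs, mostly microRNA precursors, was -0.13, with 63 above 0 and 83 below. Without the microRNA precursors 10 of these were left, with a median of -0.94, 3 above 0 and 7 below. A median below that of all genes is therefore not read as particular to H/ACA RNAs.

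Most RNAs past 2-fold were C/D RNAs on the higher side. At least 2-fold higher in the TLR4ΔIEC column were 15 of the 102 RNAs and at least 2-fold lower were 6, together 20.6%, beside 4.08% of all genes (1.29% higher and 2.79% lower). Short RNAs as a whole differed often: of the other short RNAs, 28.8% were past 2-fold (8.9% higher and 19.9% lower). That set is not free of snoRNA signal, as it holds Rnu73b (1.35), by its name a U73 RNA. It also holds microRNA entries inside snoRNAs or scaRNAs: Mir1843 (1.44), Mir1291 (1.03), Mir5121 (0.71), Mir1843b (0.56) and Mir3069 (-0.08). The names of AF357425 (-1.03) and AF357399 (-0.93) give no class, so snoRNA signal on the lower side is possible too. Coverage of the other short RNAs was also weaker: 63 of the 146 had a mean of at least 20 units, against 95 of the 102. With these limits, the 20.6% is not read as particular to snoRNAs. The C/D class held 13 of the 15 higher and 3 of the 6 lower RNAs, the H/ACA class 1 and 3, and the scaRNAs 1 and 0. The C/D class was also the largest, with 62 of the 102 RNAs. Past 2-fold were 25.8% of C/D RNAs, 12.9% of H/ACA RNAs and 11.1% of scaRNAs, beside the 28.8% of other short RNAs. Among the 3 lower H/ACA RNAs, Snora36b passed the level through its wild type value alone, and no direction is read from so few H/ACA calls past 2-fold. At a mean of at least 20 units the picture was 13 higher and 3 lower of 60 C/D RNAs and 0 higher and 1 lower of 26 H/ACA RNAs, beside 5.1% of all genes and 22.2% of other short RNAs past 2-fold.

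The split of higher and lower RNAs moved with the scaling. It was 15 and 6 as given, 17 and 3 with columns scaled to their totals, 17 and 4 without scaling or with quantile normalization, and 18 and 2 with the total taken without the 50 highest genes or with the ratios centred on the other short RNAs. The last setting raised every log2 ratio by 0.13. The median of all genes was 0.12 with the total without the 50 highest genes and 0.16 with that centring. Under the 6 other scalings, 46 to 49 of the 62 C/D RNAs were above 0 and 24 to 26 of the 31 H/ACA RNAs below 0. With the total without the 50 highest genes and with the centring, the C/D median (0.37 and 0.40) stayed above and the H/ACA median (-0.32 and -0.29) below the median of all genes. With a coverage of at least 20 in both columns, chosen after seeing the data, 9 RNAs were higher and 4 lower.

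**Figure D2:**
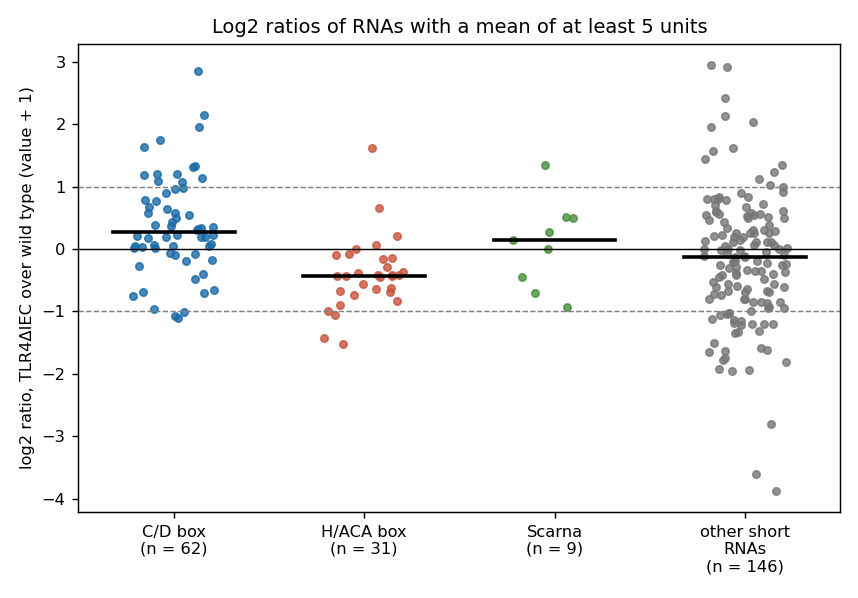
Log2 ratios (y axis, TLR4ΔIEC over wild type, value + 1) of RNAs with a mean of at least 5 units, in columns for 62 C/D, 31 H/ACA, 9 Scarna and 146 other short RNAs. Each point is 1 RNA, thick bars are medians (0.27, -0.43, 0.14 and -0.13), the dashed lines mark 2-fold, and points are spread sideways for visibility only.

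Summed over its RNAs, the C/D class was nearly level between the columns and the H/ACA class was lower in TLR4ΔIEC. C/D units summed to 46602 in wild type and 48855 in TLR4ΔIEC, a log2 ratio of sums of 0.07, and Snord22 alone gave 11551 and 11041 of these units. H/ACA units summed to 30315 and 22544, a log2 ratio of -0.43, the same as the class median. As shares of the summed coverage, C/D RNAs held 4.55% and 5.01%, H/ACA RNAs 2.96% and 2.31%, and scaRNAs 0.272% and 0.291%.

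Among C/D RNAs the Snord1 family had the highest ratio. Snord1c, which guides methylation of large subunit rRNA, had a coverage of 7.06 and 58.2, or 10.4 and 81.4 units, a log2 ratio of 2.86. Its near copy Snord1b had 15.7 and 57.1, a log2 ratio of 1.75. The 2 sequences printed above are identical at 97.4% of aligned bases (74 of 76), so reads could be split between them, and each value is uncertain. Snord1a, identical to Snord1b at only 63.0% of aligned bases, lay under the level for comparison, with a coverage of 0.434 and 1.16. The host transcript of all 3, 1810032O08Rik, was also under that level, at 5.06 and 3.60 units.

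Other well covered C/D RNAs were at least 2-fold higher, and the ratios of their hosts were smaller. Snord91a, in an intron of the ribosome assembly factor gene Tsr1, had a coverage of 47.6 and 223, or 69.8 and 312 units, a log2 ratio of 2.14 beside 0.20 for Tsr1. Snord87, in an intron of Snhg6, had 61.9 and 255, or 90.7 and 357 units, a log2 ratio of 1.96 beside -0.10 for Snhg6. Snord73a, in Rps3a1, was covered at 14.5 and 48.5 (log2 ratio 1.63, host 0.09). The other 8 C/D RNAs at least 2-fold higher, with log2 ratios from 1.08 to 1.33, were Snord68, Snord111, Snord7, Snord11, Snord43, Snord2, Snord42b and Snord35a. The last was the most covered of the higher RNAs: its coverage was 834 and 2194, and its rank among all genes 109 and 40. Among the hosts of these 8, Sf3b3 (0.60, holding Snord111), Nop58 (0.42, Snord11) and Rpl3 (0.39, Snord43) were above 0. Below 0 were Rpl13 (-0.11, Snord68), Eif4a2 (-0.11, Snord2), Rpl23a (-0.11, Snord42b) and Rpl13a (-0.34, Snord35a). AA465934, the host of Snord7, was under the level for comparison.

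The lower C/D RNAs were fewer and included strongly covered ones. Snord15b, in an intron of Rps3, had a coverage of 2966 and 1452, or 4348 and 2029 units, a log2 ratio of -1.10. Snord71, in an intron of the adaptin gene Ap1g1, had 1702 and 850, a log2 ratio of -1.07, while Ap1g1 was at 0.54. Snord4a, in Rpl23a, had 44.2 and 22.6 (log2 ratio -1.02) and overlaps an exon of Tlcd1 on the opposite strand. None of these 3 was past 2-fold with the total without the 50 highest genes (-0.99, -0.97 and -0.91) or with centring on other short RNAs (-0.97, -0.94 and -0.88). Next came Snord34 (-0.96), Snord99 (-0.75) and Snord89 (-0.70), all within 2-fold. Of the 8 most covered C/D RNAs, Snord22 (-0.07), Snord49b (0.04) and Snord55 (0.05) lay near the typical gene. Snord83b was at 0.33, and Snord32a stood at 1934 and 3788 reads per base, a log2 ratio of 0.90.

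Most H/ACA RNAs were lower in TLR4ΔIEC by less than 2-fold. The 8 most covered, Snora64, Snora52, Snora74a, Snora61, Snora7a, Snora26, Snora17 and Snora28, were all below 0, with log2 ratios from -0.74 (Snora74a) to -0.28 (Snora61). Snora64 had 8259 and 6150 units (-0.43), and Snora52 had 4986 and 3718 (-0.42). Without Snora64 the class median was still -0.43, with 25 of 30 below 0. The lowest ratio belonged to Snora5c, printed above, at a coverage of 131 and 47.4, or 192 and 66.3 units, a log2 ratio of -1.52, while its host Tbrg4 was at 0.56. Snora36b (coverage 7.40 and 2.43, log2 ratio -1.43) and Snora3 (16.6 and 7.97, -1.06) were the other 2 past 2-fold, and Snora65 (56.9 and 29.5) lay just short of it.

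Of the H/ACA RNAs, 5 were above 0. Snora34, a weakly covered RNA in an intron of Kansl2, had a coverage of 3.62 and 13.1 and the only log2 ratio past 2-fold upward (1.62). Snora41, also weakly covered, was at 0.66. The other 3 had a mean above 20 units: Snora31 at 373 and 450 reads per base (0.20), Snora24 at 121 and 133 (0.07) and Snora81 at 367 and 386 (0.00).

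The scaRNAs showed no common direction. Scarna2, which guides methylation of U2 spliceosomal RNA, had a coverage of 579 and 443 (log2 ratio -0.45). Scarna10, the U85 RNA with boxes of both classes that acts on U5 spliceosomal RNA, had 336 and 388 (0.14). Scarna6 had 414 and 610 (0.49) and Scarna13, the U93 RNA, had 198 and 127 (-0.71). All 4 were within 2-fold, with values on both sides of 0.

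Of the other 5, Scarna3b had a coverage of 11.5 and 31.9 and was the only one past 2-fold (log2 ratio 1.35). Scarna3a, a relative identical at 85.7% of aligned bases, had 130 and 195 (0.51). Scarna8 had 26.3 and 14.2 (-0.93), Scarna9 had 17.7 and 22.6 (0.27) and Scarna17 had 192 and 202 (0.00). MicroRNA entries within members moved with them in some cases: Mir1843, inside Scarna3b, was at 1.44, and Mir1843b, inside Scarna3a, at 0.56. Mir3069, inside Scarna13, was at -0.08 beside -0.71 for Scarna13. Mir5121 (0.71) lies in Snord33 (0.68), and Mir1291 (1.03) in Snora34 (1.62). Mir664, in Snora36b, was under the level for comparison, at 2.27 and 0.993 units. Such a pair shares bases, so it is not 2 measurements.

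RNAs known for a part in cutting pre-rRNA, and those of imprinted brain clusters, gave few values. Beside Snord22, of the former only Snord14a, the U14 RNA, was listed in both columns, at a coverage of 6.41 and 0.318, or 9.40 and 0.445 units. Its mean of 4.92 units lay just under the level for comparison. The deposited table places it on chromosome 2 and the annotation on chromosome 7, so the value cannot be tied to 1 locus. Snord116, Snord116l1 and Snord116l2, brain-enriched RNAs of the Prader-Willi region, had the same values in each column, 1.30 and 1.73, with 10 loci under each entry, and count as 1 measurement near the limit of coverage. No entry named Snord118, Snord13, Snora73 or Snord115 was listed in either column.

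RNAs and their host genes shared a direction about as often as not. For 87 RNAs in 64 host genes, both the RNA and the host had a mean of at least 5 units: 43 pairs had the same sign and 44 opposite signs. No host was past 2-fold (0 of 64), beside 4.08% of all genes, and 18 of the 87 RNAs were, beside 28.8% of other short RNAs. As short RNAs differed more often than genes in general, this gap is not read as particular to the pairs. Across the 87 pairs the log2 ratios of RNA and host had a Pearson r of 0.10 and a Spearman rho of 0.11, as a description, since hosts with several RNAs appear more than once. Levels were also loosely linked, with a Pearson r of 0.27 and a Spearman rho of 0.26 on log2 units, and the RNA lay above its host in 55 of 87 pairs in either column.

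Ribosomal protein genes held 31 of the RNAs in 22 genes. All 10 H/ACA RNAs in them that reached a mean of 5 units were below 0, with a median of -0.43, though Snora70 was above 0 with scaling by totals that leave out the 50 highest genes, by quantile normalization or by centring on other short RNAs. Of the 20 C/D RNAs in ribosomal protein genes, 14 were above 0, with a median of 0.28. The host genes themselves had a median of -0.12, with 8 above 0, 14 below and 0 past 2-fold, beside 4.08% of all genes. In the other host genes, 32 of 41 C/D RNAs were above 0 (median 0.31) and 14 of 19 H/ACA RNAs below 0 (median -0.37), so the split by class was present in both kinds of host.

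RNAs from introns of the same gene differed from each other. Rpl13a, whose 4 snoRNAs are known for a part in the cellular response to excess fatty acids, stood at 869 and 688 units (log2 ratio -0.34). Snord35a had the highest ratio of the 4, at 1223 and 3066 units (1.33), Snord32a had 2834 and 5294 (0.90), and Snord33 had 442 and 708 (0.68). Snord34 had 297 and 152 (-0.96), a range of 2.28 log2 units within 1 gene. In Rpl23a (-0.11) the range was 2.33, from Snord4a at -1.02 through Snord42a at 0.22 to Snord42b at 1.31. In Rps3 (-0.22), Snord15a was at 0.19 and Snord15b at -1.10, although they are relatives with 66.0% of aligned bases identical.

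Noncoding hosts and hosts for nucleolar proteins gave further examples. In Snhg12 (0.09), the H/ACA RNAs Snora16a (-0.15), Snora44 (-0.14) and Snora61 (-0.28) and the C/D RNA Snord99 (-0.75) were all below 0, although Snora16a changed sign under quantile normalization. In Gas5 (0.61), a host that encodes no protein, only Snord47 was listed, at 279 and 375 reads per base (0.36). In Nop58 (0.42), the gene of a C/D core protein, Snord70 was at 0.96 and Snord11 at 1.19. In Ncl (0.64), the gene of nucleolin, the C/D RNA Snord82 was at 0.55 and the weakly covered H/ACA RNA Snora75 at -0.08. Of 17 hosts with at least 2 RNAs compared, Nop56 had the narrowest range (0.04), with Snord57 at 0.05 and Snord110 at 0.09.

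**Figure D3:**
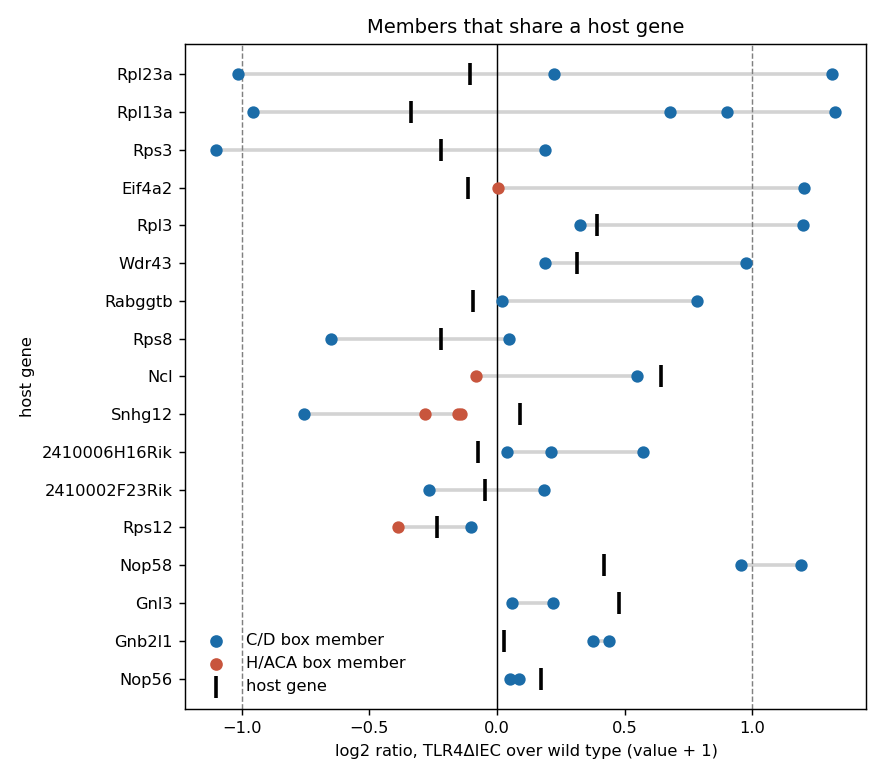
Log2 ratios (x axis, TLR4ΔIEC over wild type, value + 1) of RNAs that share 1 of 17 host genes (y axis), ordered by their range. Points are RNAs, grey lines join those of 1 host, short black bars are the host genes and the dashed lines mark 2-fold; Rpl23a and Rpl13a have ranges of 2.33 and 2.28, with RNAs on both sides of 0.

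Length and base composition moved with the class. The median length of the RefSeq model was 68 bases for the 62 C/D RNAs and 121 for the 31 H/ACA RNAs, and the median GC content 44.8% and 48.5%. Of 40 RNAs with models under 70 bases, 31 were above 0 (median 0.29). Of 24 with models of 70 to 99 bases 17 were (0.19), and of 38 with models of at least 100 bases 9 were (-0.42). Across 102 RNAs the log2 ratio had a Pearson r of -0.34 and a Spearman rho of -0.41 with model length, and -0.37 and -0.42 with GC content. Within C/D RNAs (n = 62) these were -0.23 and -0.14 for model length and -0.32 and -0.36 for GC content. Within H/ACA RNAs (n = 31) they were -0.03 and 0.00 for model length and -0.30 and -0.31 for GC content. With the length of the GENCODE transcript, r and rho were -0.30 and -0.39 across the 102 RNAs. For that length they were -0.20 and -0.05 within C/D RNAs and -0.05 and -0.09 within H/ACA RNAs. All are descriptions over RNAs of the same libraries.

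Few C/D and H/ACA RefSeq models were of the other class's usual length. Only 2 H/ACA models were under 100 bases, Snora61 (-0.28) and Snora68 (-0.63), and both were below 0. Their GENCODE transcripts had 130 and 131 bases, so these are short models of RNAs of the usual H/ACA length. Only 4 C/D models had 100 bases or more: Snord15b (-1.10), Snord17 (-0.49), Snord22 (-0.07) and Snord15a (0.19), of which 3 were below 0. Snord8 (0.33), Snord23 (-0.69), Snord43 (1.20), Snord67 (-0.40) and Snord89 (-0.70) had shorter models but GENCODE transcripts of 108 to 111 bases. Of the scaRNAs, 5 had models of 100 bases or more, and 3 of these were above 0 (median 0.49), unlike most RNAs with models of that length. At these numbers class and length cannot be told apart for C/D and H/ACA RNAs.

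**Figure D4:**
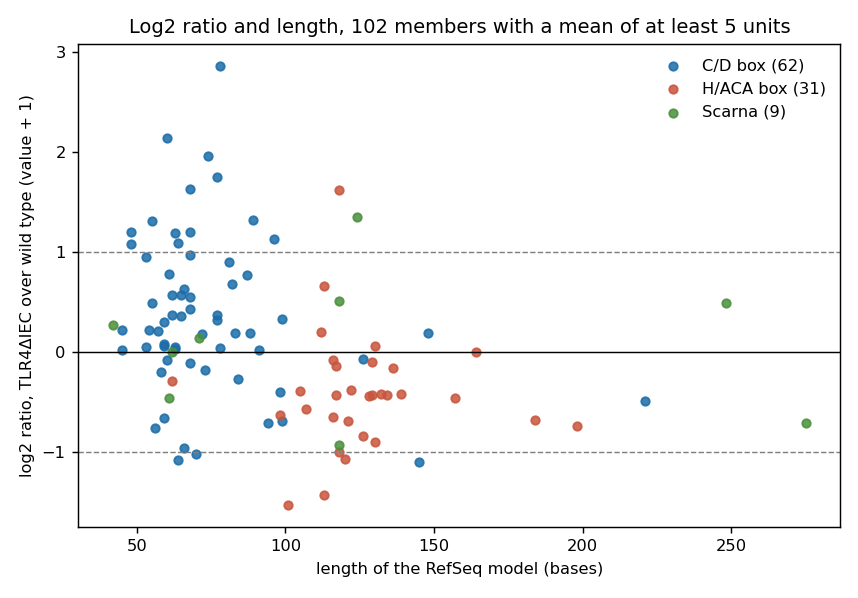
Log2 ratio (y axis, TLR4ΔIEC over wild type, value + 1) against the length of the RefSeq model in bases (x axis) for 102 RNAs, coloured by class, with dashed lines at 2-fold. C/D points lie mostly under 100 bases and above 0, H/ACA points mostly over 100 bases and below 0, and few points lie where the classes overlap.

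Genes of the machinery that makes and carries these RNAs lay within 2-fold in the protein groups described here. Past 2-fold were 4.08% of all genes, so 0 among so few genes is near that share and shows little. Above 0 were 4680 of all 8891 genes compared. The C/D core proteins were all 4 above 0, with fibrillarin (Fbl) at 0.53 (21.7 and 31.8 units), Nop58 at 0.42, Nop56 at 0.17 and Nhp2l1 at 0.17. Of the H/ACA core proteins, dyskerin (Dkc1) was at 0.35, Gar1 at 0.22, Nhp2 at 0.19 and Nop10 at -0.22. Of 4 assembly factors that reached a mean of 5 units, 3 lay above 0, among them the ATPases Ruvbl1 (0.57) and Ruvbl2 (0.31). Of 6 Cajal body and nucleolar proteins, 5 were above 0, led by Nolc1 (0.65), a snoRNP chaperone, and Ncl (0.64).

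The 7 release, trimming and decay factors had a median of 0.20 with 6 above 0, from the exonuclease Xrn2 (0.57), which trims snoRNA ends, to the poly(A) polymerase Papd5 (-0.46), and the debranching enzyme Dbr1 was at 0.35. RNA polymerase I and U3 processome genes were split, with 3 of 7 above 0 and a median of -0.04. The 12 noncoding host genes were split evenly, 6 above and 6 below 0, from Gas5 (0.61) to Dancr (-0.73), the host of Snora26 (-0.68).

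Other short structured RNAs differed more than these proteins. Rpph1, the RNA of RNase P, stood at 25848 and 9420 units (log2 ratio -1.46), and Rmrp, the RNA of RNase MRP, which cuts pre-rRNA, at 33677 and 16574 (-1.02). Terc, the telomerase RNA, which has an H/ACA domain, was at 33.2 and 18.6 (-0.80). Rnu73b, by its name a U73 RNA like Snord73a, was at 70.1 and 180 (1.35), beside 1.63 for Snord73a. Rnu12 and Rnu11, of the minor spliceosome, were at 0.84 and 0.29, and the vault RNA Vaultrc5 at 0.64. Past 2-fold were 12 of 136 microRNA precursors on the higher side and 25 on the lower side.

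**Figure D5:**
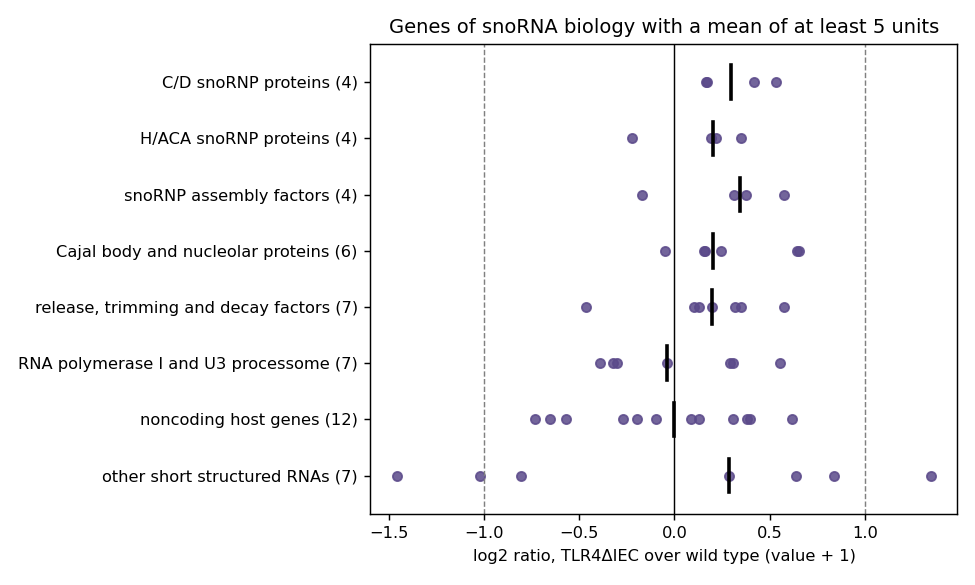
Log2 ratios (x axis, TLR4ΔIEC over wild type, value + 1) of genes reaching a mean of 5 units in 8 groups (y axis, number of genes in parentheses). Points are genes, black bars medians and dashed lines 2-fold; proteins lie within 2-fold, and the short structured RNAs spread from -1.46 (Rpph1) to 1.35 (Rnu73b).

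The wild type column listed 22724 entries and the TLR4ΔIEC column 22687, with median coverage 1.57 and 1.70. The spread of log2 ratios over all genes had a standard deviation of 0.48. Tlr4 stood at 2.90 and 2.24 units (-0.27), under the level for comparison. Its value also covers the whole transcript in all cells, so it checks the deletion only weakly. The ileal marker Fabp6 was at 15350 and 13628 units, and 5 enterocyte markers summed to 17062 and 15081, so both columns hold ileal epithelium. Smooth muscle markers summed to 276 and 333 units, leukocyte markers to 37.0 and 43.1, neuron markers to 19.9 and 19.0, adipose markers to 24.3 and 7.47, red cell markers to 85.2 and 204, and proliferation markers to 133 and 177. Markers within a sum differed: Cd3e was at 0.82, Ptprc at 0.35 and Cd79a at -0.06. Mcm6 was at 1.05, Top2a at 0.63, Pcna at 0.22 and Mki67 at 0.14. Among enterocyte markers Fgf15 was at -0.63, Epcam at -0.40, Fabp6 at -0.17, Vil1 at -0.01 and Slc10a2 at 0.01. Of 6 immediate early and heat shock genes that reached a mean of 5 units, which respond quickly to handling and stress, 6 were below 0 (median -1.26). At least 2-fold lower were 4, beside 2.79% of all genes: Fos (-1.45), Jun (-1.06), Junb (-1.51) and the heat shock gene Hspa1a (-1.96). The part of these differences in the snoRNA ratios was not tested.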

How the data were processed

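Ileum RNA of 3 wild type and 3 TLR4ΔIEC mice was sequenced; per the labels' protocols, total RNA was depleted of rRNA, spiked with control RNA, fragmented with RNase III and made into strand-specific Ion Torrent libraries. The submitters' processing notes name TopHat2 2.0.10, Bowtie2 2.1.0 and mm10 without roles. Per the file headers, the authors deposited the average coverage of each RefSeq entry, a signal in reads per base that was not scaled to library size, in 1 column per genotype shared by its 3 mice. The sources used here do not give the tool that made the averages, its use of strand or the read length, so no read numbers or counting intervals are given. For 107 of the 113 RNAs in both columns, coverage times the RefSeq length was a whole number within 0.0001.

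Entries in both columns were used, 1 per symbol (the highest mean), scaled by the median of ratios (factor 1.05) to a mean total of 1000000 units. Log2 ratios used a pseudocount of 1 unit, a filter at a mean of 5 units and a 2-fold threshold, with 20 units marking well covered RNAs. With 1 pooled column per group there was no test. Other short RNAs were noncoding entries under 300 bases. Hosts were same-strand GENCODE vM21 genes containing the RNA, and coordinates of RefSeq models were from GRCm38.p6, the same assembly.

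The members and gene lists were chosen with earlier results of these data known. Named RNAs were all scaRNAs, the 8 most covered C/D and H/ACA RNAs, the 6 highest and 6 lowest ratios at 20 units or more, rRNA-cleavage and imprinted-cluster RNAs, those hosted by Gas5, Rpl13a, Snhg1 and Ncl, and list members past 2-fold with up to 4 others of highest mean; RNAs named beyond these were chosen after their values were seen. The 15 alternatives covered scaling, pseudocount, filter, repeated entries, loci, overlaps and coverage. The steps were tested on simulated data. Python 3.11.15, numpy 2.4.6, pandas 2.3.3, scipy 1.17.1, Biopython 1.88 and matplotlib 3.10.9 were used.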

Additional observations from a re-analysis of the deposited data

How the results depend on the processing

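No result changed direction among the class medians and counts. The number of RNAs at least 2-fold lower (6) was 3 with columns scaled to the total or a pseudocount of 5 units, and 2 with the total without the 50 highest genes or centring on other short RNAs. The number at least 2-fold higher (15) was 9 with a coverage of at least 20 in both columns, an alternative chosen after seeing the data that compares fewer RNAs (81). The C/D median (0.27) was 0.37 with the total without the 50 highest genes, 0.37 with quantile normalization and 0.40 with the centring. The H/ACA median (-0.43) was -0.32 without the 50 highest genes and -0.29 with the centring. The Scarna median (0.14) was 0.24, 0.29 and 0.27 under the same 3 settings as the C/D median. The centring and the totals shift every ratio upward by construction; for the other settings the cause was not tested. Of 554 values of named RNAs under alternatives, 547 kept their sign, and of 159 values of those past 2-fold, 147 stayed past it. Over all RNAs compared, 8 changed sign or came to 0 under at least 1 scaling, with log2 ratios from -0.18 (Snord104) to 0.04 (Snord49b) as given above; the others were Snord22, Snora70, Snora75, Snord100, Snord72 and Snora16a. No paired analysis was possible because each genotype is 1 pooled column and the groups share no replicate numbers, and for the same reason no replicate could be left out. Coverage limits the weaker RNAs most.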
